A study of Mus musculus with 12 samples.

Results

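The genes examined here are 9 markers of T cells and cytotoxic lymphocytes: Cd3e, Cd3d, Cd4, Cd8a, Trdc, Gzma, Gzmb, Foxp3 and Tbx21. They were taken by name, after the Ensembl identifiers of the count tables had been paired with mouse gene symbols. Of the 9 genes, 8 were found among the 38924 genes of the tables, and all 8 were among the 20311 genes tested. Trdc, the constant region of the delta chain of the T cell receptor, was not analysed here because its identifier in the annotation used had no match, and the gamma chain constant genes Tcrg-C1, Tcrg-C2 and Tcrg-C4 are described in its place.

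Total RNA from the proximal colonic mucosa of 12 female C57BL/6 mice, each 6 weeks old, was sequenced to ask how gene expression differed by genotype. The 6 APC Min/+ mice were heterozygous for a truncating germline mutation of Apc, which in this strain leads to intestinal adenomas, and the 6 WT mice carried no such allele. Mice of the 2 genotypes were housed in separate cages, so that genotype and cage cannot be told apart, and the sample labels do not give the shipment in which each mouse arrived. Each library came from a separate mouse and gave between 50313805 and 197914821 counts on genes.

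T cells recognise antigen through a receptor made of alpha and beta or gamma and delta chains, which reaches the surface only together with the CD3 chains that carry its signal. In the gut many T cells lie within the epithelium as intraepithelial lymphocytes (IEL), often with CD8 on their surface and with granules that hold granzymes, whereas most CD4 helper and Foxp3 regulatory T cells lie in the lamina propria below. In bulk RNA, fewer cells of a type and less RNA of a gene per cell cannot be told apart.

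In 2 APC Min/+ mice, M10_2 and M13_1, the tissue stood apart from the other 10 samples, as the markers of distal colon show. The summed level of the 4 distal position markers Hoxb13, Hoxa13, Hoxd13 and Tgm3 was 2758 CPM (counts scaled to library size) in M10_2 and 2609 CPM in M13_1, against 1.97 to 7.62 CPM in the other mice. The sum of 8 epithelial markers was 9585 CPM and 8124 CPM in these mice and lay between 12340 and 16970 CPM in the others. The 8 markers did not all go the same way. Muc2 was 1714 and 1268 CPM in these mice, against 2830 to 10530 CPM in the others. Krt20 and Cdx2 were also lowest in these mice. Epcam (1362 and 1284 CPM), Vil1 and Krt8 lay within the range of the others. Cdh1 (1491 and 1199 CPM) was highest in these mice, and Krt18 was highest in M10_2. In M13_1 the 10 B cell and follicle markers summed to 71.5 CPM, against 5.06 to 17.5 CPM in all other mice. Smooth muscle markers were present in every sample, at a sum of 4391 to 6960 CPM over 6 genes, although the label reads mucosa. Log2 fold changes are therefore given with and without M10_2 and M13_1, and the part of these tissue differences in the results was not tested.

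All 8 T cell genes were weakly expressed, with a mean level between the 12.4th and the 38.7th percentile of the genes tested. Per gene length, in RPKM (CPM scaled to gene length), the mean levels over the 12 mice ran from 0.999 for Cd3e and 0.968 for Cd3d through 0.869 for Cd4, 0.777 for Gzma, 0.607 for Cd8a and 0.524 for Gzmb to 0.129 for Tbx21 and 0.0558 for Foxp3. Neighbours in this order overlapped in their range over mice. Cd3e ranged from 0.585 to 1.54 RPKM and Cd3d from 0.443 to 1.5 RPKM, whereas Foxp3 ranged from 0.0249 to 0.0704 RPKM, below every value of Cd3e. Counts behind the values ran from 6 for Gzmb in M13_1 to 788 for Cd4 in M10_2. Even counts were frequent: of the genes with 1 to 20 counts, between 75.8% and 81.2% per mouse had an even count, as had 70 of the 96 values of the 8 genes. Where both reads of a pair were counted, the counting noise is larger than the counts alone would give, and the 6 counts of Gzmb in M13_1 may stand for as few as 3 read pairs.

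**Figure D1:**
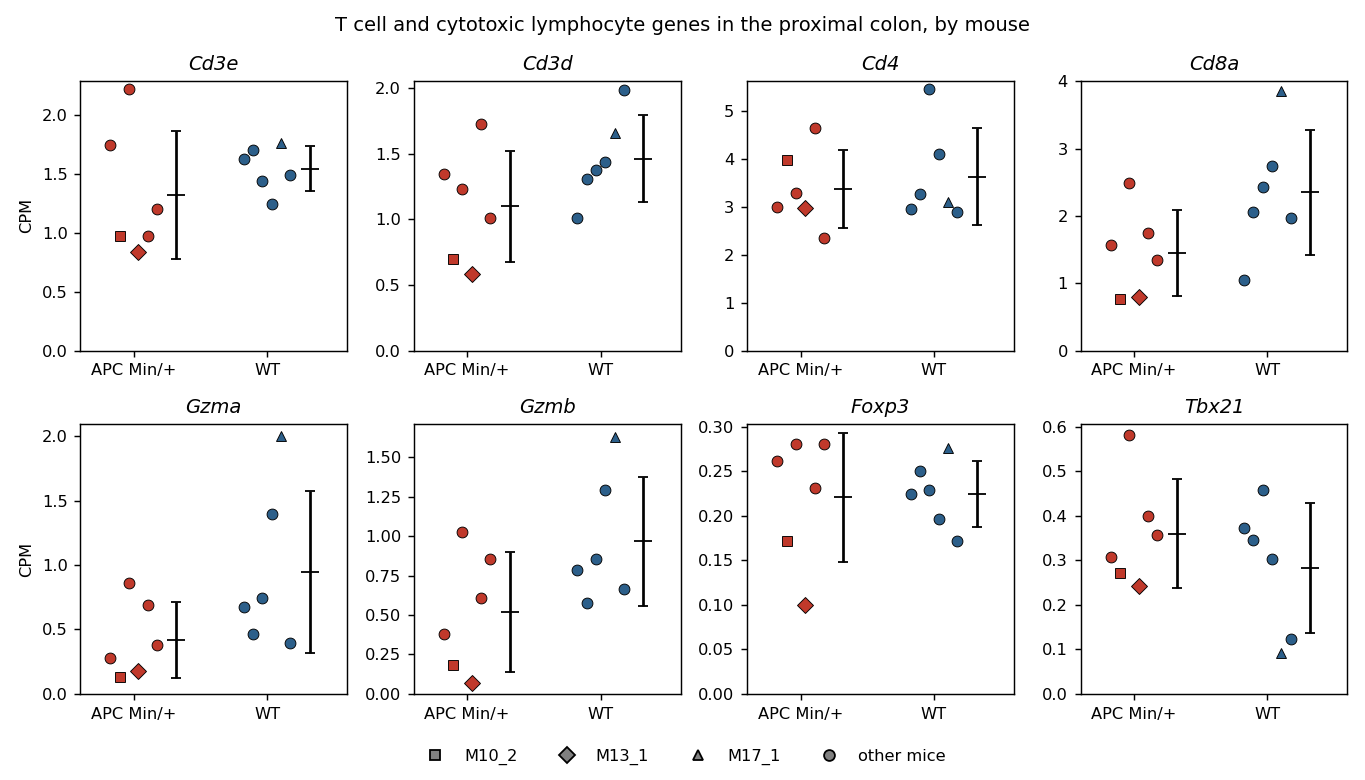
TMM-scaled CPM of 8 T cell and cytotoxic lymphocyte genes in the proximal colon of 6 APC Min/+ mice (red) and 6 WT mice (blue), 1 point per mouse, with the mean and SD of each genotype as bars. The squares and diamonds (M10_2, M13_1) were the lowest of the 12 mice for Cd3e, Cd3d, Cd8a, Gzma and Gzmb, and the triangle (M17_1) was the highest for Cd8a, Gzma and Gzmb and the lowest for Tbx21.

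In edgeR's quasi-likelihood test no gene of the tables, and none of the 8, differed between genotypes at a false discovery rate (FDR) of 0.05. In that test 0 of 20311 genes passed (0%), with a lowest FDR of 0.908. At an unadjusted p under 0.05, 703 genes were higher in APC Min/+ mice (3.46% of those tested) and 368 were lower (1.81%). Among the 8 genes, 0 were higher and 1, Gzma, was lower at that level. Genotypes did not overlap for 24 of the genes tested (0.118%), and they overlapped for all 8 T cell genes. DESeq2 called 29 genes at an FDR of 0.05, none of them among the 8. With a 2-fold difference also required, edgeR's exact test called 10 genes at that FDR, none of the 8. The study, which used edgeR without naming the test, did report genes at that FDR and a 2-fold cutoff. They included Gpr83, Hoxb13, Hoxa13, Hoxd13 and Tgm3, and none of the 8.

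The granzymes, serine proteases that cytotoxic cells release into their targets, showed the widest spread. Gzma (ENSMUSG00000023132.7; GRCm38, chromosome 13, 113093825 to 113100981, reverse strand) encodes granzyme A. It was counted at 0.131, 0.330 and 0.863 CPM (lowest, median and highest) in the APC Min/+ mice and at 0.392, 0.707 and 2.0 CPM in the WT mice. WT mice M17_1 and M18_2a were the highest of all, while M10_2 and M13_1 were the lowest. For Gzma, APC Min/+ mice M8_2 (0.277 CPM) and M20_1 (0.383 CPM) also lay below every WT mouse. Its mean was 0.421 ± 0.295 CPM (SD, n = 6) for APC Min/+ and 0.944 ± 0.628 CPM (SD, n = 6) for WT, a log2 fold change of -1.18 (SE 0.518, edgeR quasi-likelihood FDR = 0.908). This 2.27-fold lower mean did not pass the threshold, and without M10_2 and M13_1 the log2 fold change was -0.78. Between the lowest and the highest mouse Gzma differed 15.2-fold.

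Gzmb (ENSMUSG00000015437.4; chromosome 14, 56258838 to 56262260, reverse strand) encodes granzyme B, which activates caspases in the target cell. Its lowest, median and highest values were 0.0663, 0.495 and 1.02 CPM in APC Min/+ mice and 0.577, 0.820 and 1.63 CPM in WT mice. The same mice lay at both ends as for Gzma, and 3 APC Min/+ mice, M10_2, M13_1 and M8_2, lay below every WT mouse. The means were 0.519 ± 0.378 CPM (SD, n = 6) and 0.967 ± 0.409 CPM (SD, n = 6), with a log2 fold change of -0.91 (SE 0.513, edgeR quasi-likelihood FDR = 0.908). Without M10_2 and M13_1 it was -0.45. Across mice Gzmb spanned a 24.6-fold range, the widest of the 8 genes.

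Gzma and Gzmb varied together from mouse to mouse. Pearson's r of log2(CPM + 0.1) was 0.89 over 12 mice (Spearman's rho 0.85), 0.84 without the 2 mice farthest from the median of Gzma, and 0.89 without M10_2 and M13_1. It was 0.85 within the 6 APC Min/+ mice and 0.98 within the 6 WT mice. These points share libraries and depth, and r is given as a description. Prf1, which encodes the pore-forming perforin, was counted at only 0.0601 ± 0.0293 CPM (SD, n = 6) and 0.0824 ± 0.0273 CPM (SD, n = 6), and Gzmk, another granzyme gene, and Ifng, which encodes interferon gamma, fell below the filter on low counts.

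The 250 bases upstream of each start are shown for these granzyme genes and for the 2 CD3 genes below, which are neighbours on chromosome 9. They are from RefSeq, GRCm38.p6, read 5′ to 3′ on the strand of the gene, and capitals mark TGTGGT, the core of the motif bound by RUNX factors, or its complement ACCACA. The windows are chr13:113100982-113101231 for Gzma, chr14:56262335-56262584 for Gzmb, chr9:45009612-45009861 for Cd3e (all on the reverse strand) and chr9:44981536-44981785 for Cd3d (forward strand).
Gzma: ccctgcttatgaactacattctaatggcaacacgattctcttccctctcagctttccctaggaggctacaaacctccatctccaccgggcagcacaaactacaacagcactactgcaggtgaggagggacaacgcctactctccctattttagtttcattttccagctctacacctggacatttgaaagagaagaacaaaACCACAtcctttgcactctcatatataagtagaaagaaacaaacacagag
Gzmb: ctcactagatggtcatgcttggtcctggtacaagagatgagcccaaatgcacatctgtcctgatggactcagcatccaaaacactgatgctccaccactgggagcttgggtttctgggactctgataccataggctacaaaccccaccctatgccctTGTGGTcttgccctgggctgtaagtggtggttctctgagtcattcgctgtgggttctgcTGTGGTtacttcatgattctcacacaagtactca
Cd3e: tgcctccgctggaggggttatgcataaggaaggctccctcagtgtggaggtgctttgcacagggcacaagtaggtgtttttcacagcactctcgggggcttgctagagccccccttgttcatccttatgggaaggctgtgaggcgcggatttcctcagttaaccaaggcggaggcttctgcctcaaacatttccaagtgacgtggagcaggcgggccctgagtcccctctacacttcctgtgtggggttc
Cd3d: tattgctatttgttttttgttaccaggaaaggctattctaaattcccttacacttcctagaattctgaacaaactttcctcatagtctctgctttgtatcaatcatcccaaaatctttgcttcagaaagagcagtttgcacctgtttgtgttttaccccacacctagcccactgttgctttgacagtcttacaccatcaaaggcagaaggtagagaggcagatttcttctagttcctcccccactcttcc
Searched on both strands, TGTGGT was found once upstream of Gzma, with its first base at -50 from the RefSeq start, and at -93 and -34 upstream of Gzmb. For Gzmb, Cd3e and Foxp3 the RefSeq start differs from the gene coordinates printed here. The Gzmb window lies beyond the gene end at 56262260 without touching it. The Cd3e window overlaps the gene end at 45009627, and the Foxp3 windows lie inside the gene. It was not found in the windows of Cd3e, Cd3d, Cd8a, Foxp3 or Tbx21, so that 2 of the 7 genes with a window held it, against 14.0% of all 32536 distinct windows of this length. The E-box CANNTG was found in the windows of all 7 genes and in 66.2% of all windows. A match of these letters is a description and not a site of binding. Whether these motifs bear on the patterns across mice was not tested.

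Cd8a, the alpha chain of the CD8 co-receptor (ENSMUSG00000053977.7; chromosome 6, 71373427 to 71379173, forward strand), followed the granzymes. It was counted at 0.773, 1.46 and 2.49 CPM (lowest, median and highest) in APC Min/+ mice and at 1.05, 2.25 and 3.85 CPM in WT mice. M17_1 was again the highest and M10_2 the lowest, with M13_1 next. Its mean of 1.45 ± 0.644 CPM (SD, n = 6) in APC Min/+ mice was 1.62-fold lower than the WT mean of 2.35 ± 0.931 CPM (SD, n = 6), a log2 fold change of -0.70 (SE 0.333, edgeR quasi-likelihood FDR = 0.908), which did not pass the threshold. Without M10_2 and M13_1 it was -0.40. Across mice Cd8a had an r of 0.85 with Gzma and 0.83 with Gzmb, and of 0.72 and 0.64 without M10_2 and M13_1.

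The gene whose pattern was most like that of Cd8a among all genes tested was Cd96 (r = 0.98, and 0.95 without M10_2 and M13_1), which encodes a receptor of T and NK cells. Trac, the constant region of the alpha chain of the receptor, was next (r = 0.96), followed by Pla2g4c and Art2b (both 0.93) and Tcrg-C2 (0.93). When M10_2 and M13_1 were left out, the r of Trac was 0.93 and that of Tcrg-C2 0.84, and the genes after Cd96 were Ighv11-2, Malt1, Elf5 and Gm13803. Cd8b1, the other CD8 chain, was chosen for mention after its values were seen. It averaged 0.0601 RPKM against 0.607 RPKM for Cd8a, with only 2 to 20 counts per mouse. The ratio of Cd8a to Cd8b1 in RPKM had a median of 12.2 in APC Min/+ mice and 12.5 in WT mice. In M13_1 it was 1.63, the lowest of the 12, since Cd8b1 was at its highest there (0.221 CPM) while Cd8a was next to its lowest (0.795 CPM).

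Cd4, the co-receptor of helper T cells (ENSMUSG00000023274.8; chromosome 6, 124864692 to 124888221, reverse strand), had the narrowest range over mice of the 8 genes (2.33-fold). Its lowest, median and highest values were 2.35, 3.15 and 4.64 CPM in APC Min/+ mice and 2.89, 3.19 and 5.47 CPM in WT mice. WT mouse M16_1 and APC Min/+ mouse M2_A were the highest, and M10_2 was the fourth highest, unlike its place for Cd8a. The log2 fold change was -0.11 (SE 0.204, edgeR quasi-likelihood FDR = 0.929), less than its standard error. It was -0.13 without M10_2 and M13_1, and 0.058 without WT mouse M16_1. The ratio of Cd8a to Cd4 in RPKM was 0.250 to 0.974 with a median of 0.578 in APC Min/+ mice and 0.457 to 1.6 with a median of 0.836 in WT mice, so that the genotypes overlapped. The r of Cd4 was -0.21 with Cd3e, 0.19 with Cd3d, 0.23 with Cd8a, 0.22 with Gzma, 0.067 with Gzmb, -0.065 with Foxp3 and 0.33 with Tbx21. With the macrophage markers Adgre1 (which encodes F4/80), Csf1r and C1qb its r was 0.83, 0.80 and 0.71, and without M10_2 and M13_1 it was 0.93, 0.84 and 0.84. The summed level of the 8 macrophage markers was 103.5 to 307.2 CPM in APC Min/+ mice and 161.6 to 280.6 CPM in WT mice. How much of Cd4 came from cells other than T cells was not tested.

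**Figure D2:**
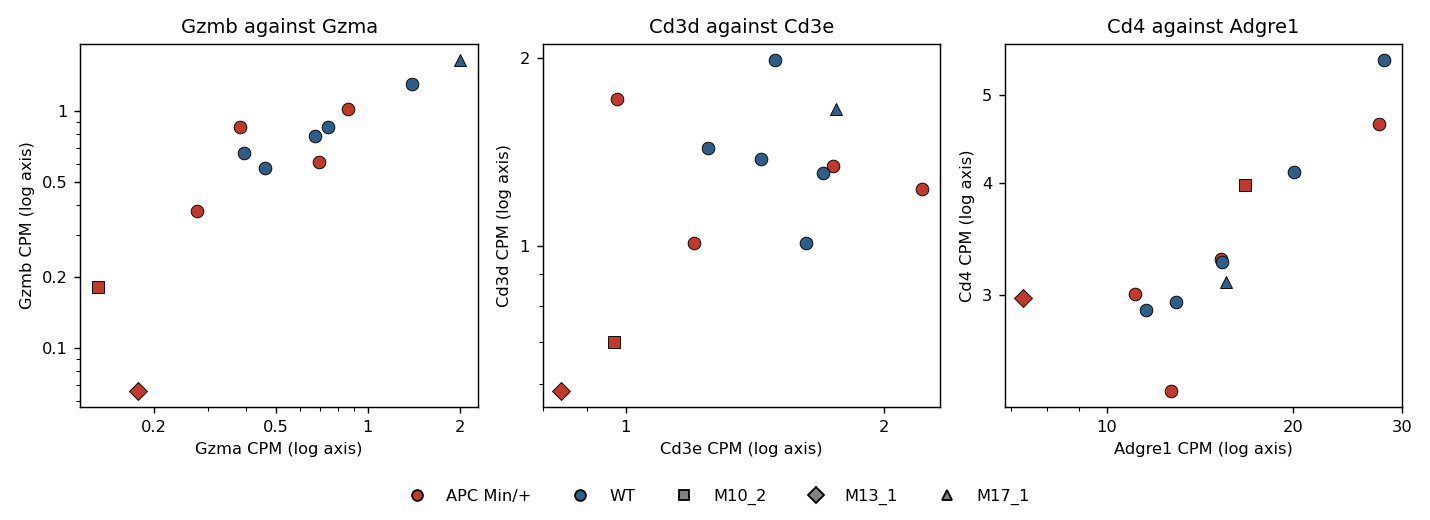
CPM of Gzmb against Gzma, Cd3d against Cd3e, and Cd4 against the macrophage marker Adgre1, on log axes, 1 point per mouse (red, APC Min/+; blue, WT; squares, diamonds and triangles mark M10_2, M13_1 and M17_1). The granzymes lie along a line (r = 0.89), Cd3d and Cd3e do not once M10_2 and M13_1 are set aside (r = -0.18), and Cd4 follows Adgre1 (r = 0.83).

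Cd3e and Cd3d, which encode chains of the CD3 complex, had lower means in APC Min/+ mice, and neither passed the threshold. Cd3e (ENSMUSG00000032093.6; chromosome 9, 44998740 to 45009627, reverse strand) encodes the epsilon chain. It was counted at 0.839, 1.09 and 2.22 CPM (lowest, median and highest) in APC Min/+ mice and at 1.25, 1.56 and 1.76 CPM in WT mice. The APC Min/+ mice spanned the whole range, with M18_2b the highest and M13_1 the lowest of all 12, whereas the WT mice lay close together. The coefficient of variation was 40.9% in APC Min/+ mice and 12.2% in WT mice, a difference that was not tested. The log2 fold change was -0.22 (SE 0.238, edgeR quasi-likelihood FDR = 0.911), and -0.0063 without M10_2 and M13_1. Cd3e overlaps Gm48719 and Gm48720 in the annotation used for symbols, and neither was among the genes counted. Whether reads of these genes were counted as Cd3e was not tested.

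Cd3d (ENSMUSG00000032094.7; chromosome 9, 44981786 to 44987339, forward strand), the delta chain gene, lies end to end with Cd3e at a distance of 11400 bp. Its lowest, median and highest values were 0.585, 1.12 and 1.72 CPM in APC Min/+ mice and 1.01, 1.41 and 1.98 CPM in WT mice. M13_1 and M10_2 were the lowest, and WT mouse M18_b the highest. The log2 fold change was -0.41 (SE 0.261, edgeR quasi-likelihood FDR = 0.908), and -0.14 without M10_2 and M13_1.

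The CD3 genes did not share 1 pattern. Cd3e and Cd3d had an r of 0.49 over 12 mice (rho 0.29) and of -0.18 without M10_2 and M13_1. Cd3d varied with Trbc2 (r = 0.89) and Cd3g (r = 0.87), and without those mice at 0.75 and 0.58. For Cd3e the values with Cd3g were 0.54 and -0.16. The genes most like Cd3e were Dnah7a (r = 0.92), Acnat2, Cdcp1, Wdr62 and Calhm3, none of them a gene of the T cell lists, and Cd3d ranked 1750 among the genes tested. All 5 were replaced when M10_2 and M13_1 were left out, by Agbl5, Wdr41, Zcchc2, Parp10 and Hps4. In mouse M2_A, for example, Cd3d was at 1.72 CPM and Cd3e at 0.977 CPM, while in M18_2b they were at 1.23 and 2.22 CPM.

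The lineage factors were the rarest transcripts. Foxp3, the factor that defines regulatory T cells (ENSMUSG00000039521.6; chromosome X, 7573644 to 7595245, forward strand), had lowest, median and highest values of 0.0994, 0.246 and 0.281 CPM in APC Min/+ mice and 0.172, 0.227 and 0.276 CPM in WT mice. The genotypes covered nearly the same range, with M13_1 alone below 0.17 CPM on 9 counts. The log2 fold change was -0.027 (SE 0.266, edgeR quasi-likelihood FDR = 0.986) and 0.23 without M10_2 and M13_1. Foxp3 overlaps Ppp1r3f, Ccdc22 and Flicr in the annotation, so reads could be shared or lost between them, and whether counting used strand is not given in the sources used here.

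Tbx21 (ENSMUSG00000001444.2; chromosome 11, 97098071 to 97115331, reverse strand) encodes T-bet, the factor of type 1 helper and cytotoxic cells, and was the 1 gene of the 8 with a higher mean in APC Min/+ mice. Its lowest, median and highest values were 0.243, 0.333 and 0.582 CPM in APC Min/+ mice and 0.0921, 0.324 and 0.459 CPM in WT mice. The medians were close, and the WT mice M17_1 and M18_b, with 10 counts each, were the lowest of all. The log2 fold change was 0.35 (SE 0.376, edgeR quasi-likelihood FDR = 0.911) and 0.54 without M10_2 and M13_1. M17_1, the mouse with the most Cd8a, Gzma and Gzmb, thus had the least Tbx21. Over 12 mice the r of Tbx21 was -0.15 with Cd8a, -0.072 with Gzma and 0.0027 with Gzmb, but within the 6 APC Min/+ mice it was 0.91, 0.93 and 0.87, and within the 6 WT mice -0.48, -0.29 and -0.40. The difference between genotypes in r was not tested.

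**Figure D3:**
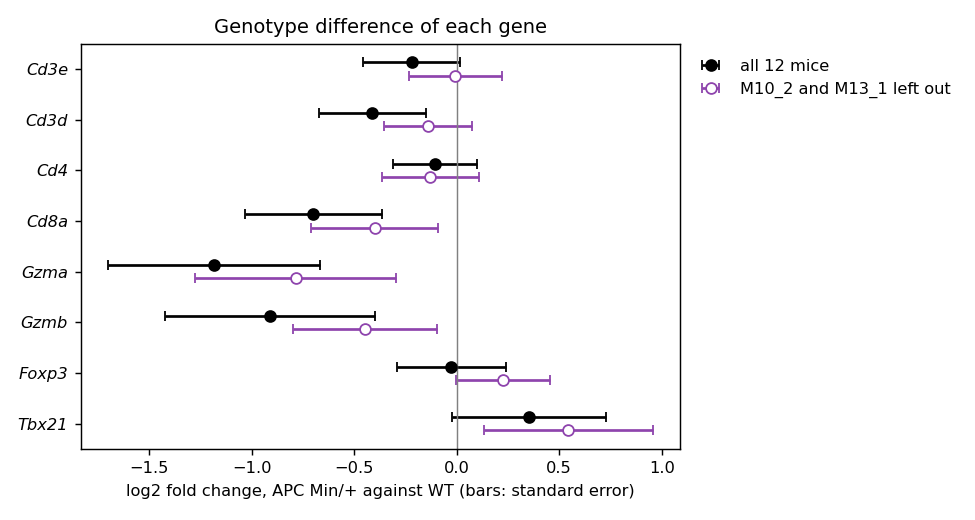
Log2 fold change of APC Min/+ against WT mice for each of the 8 genes, with its standard error, in the fit on all 12 mice (black) and in the fit without M10_2 and M13_1 (open purple). The 5 genes Cd3e, Cd3d, Cd8a, Gzma and Gzmb moved toward 0 without these mice. Cd4 and Tbx21 moved away from 0 and Foxp3 changed sign. No gene passed an FDR of 0.05 in either fit.

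The median log2 fold change of the 8 genes was -0.32, with 7 of 8 below 0, while over all genes tested it was -0.0077 with 51.6% below 0. Without M10_2 and M13_1 the median was -0.13, with 6 of 8 below 0. M13_1 was among the 2 lowest mice for 6 of the 8 genes and M10_2 for 5, and both were the 2 lowest for Cd3e, Cd3d, Cd8a, Gzma and Gzmb. The summed level of the 8 genes was 5.79 CPM in M13_1 and 7.18 CPM in M10_2, against 7.78 to 12 CPM in APC Min/+ mice apart from these and 8.69 to 14.4 CPM in WT mice.

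Of the 18 genes of the T cell receptor complex and its signalling, 17 had a negative log2 fold change, against 51.6% of all genes tested. The median of the 18 was -0.24 (-0.17 without M10_2 and M13_1), and 0 passed an FDR of 0.05. At an unadjusted p under 0.05, 0 were higher and 1 was lower, against 3.46% and 1.81% of all genes tested. The lower gene was Cd3g, the gamma chain of CD3, with a log2 fold change of -0.53 (SE 0.234, edgeR quasi-likelihood FDR = 0.908) and -0.27 without those mice. The 3 genes with the highest level per length were Ptprc, which encodes CD45 of all leukocytes (4.08 RPKM), Trbc2, a beta chain constant gene (3.36 RPKM), and Tcrg-C2 (2.81 RPKM). The gamma chain constant genes gave log2 fold changes of -0.55 for Tcrg-C1, -0.43 for Tcrg-C2 and -0.53 for Tcrg-C4, each within 2 standard errors of 0, and -0.23, -0.12 and -0.20 without M10_2 and M13_1. Tcrg-C1 had an r of 0.93 with Cd8a and 0.91 with Gzma. These constant genes are close copies of each other, and reads may have been split or lost between them.

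**Figure D4:**
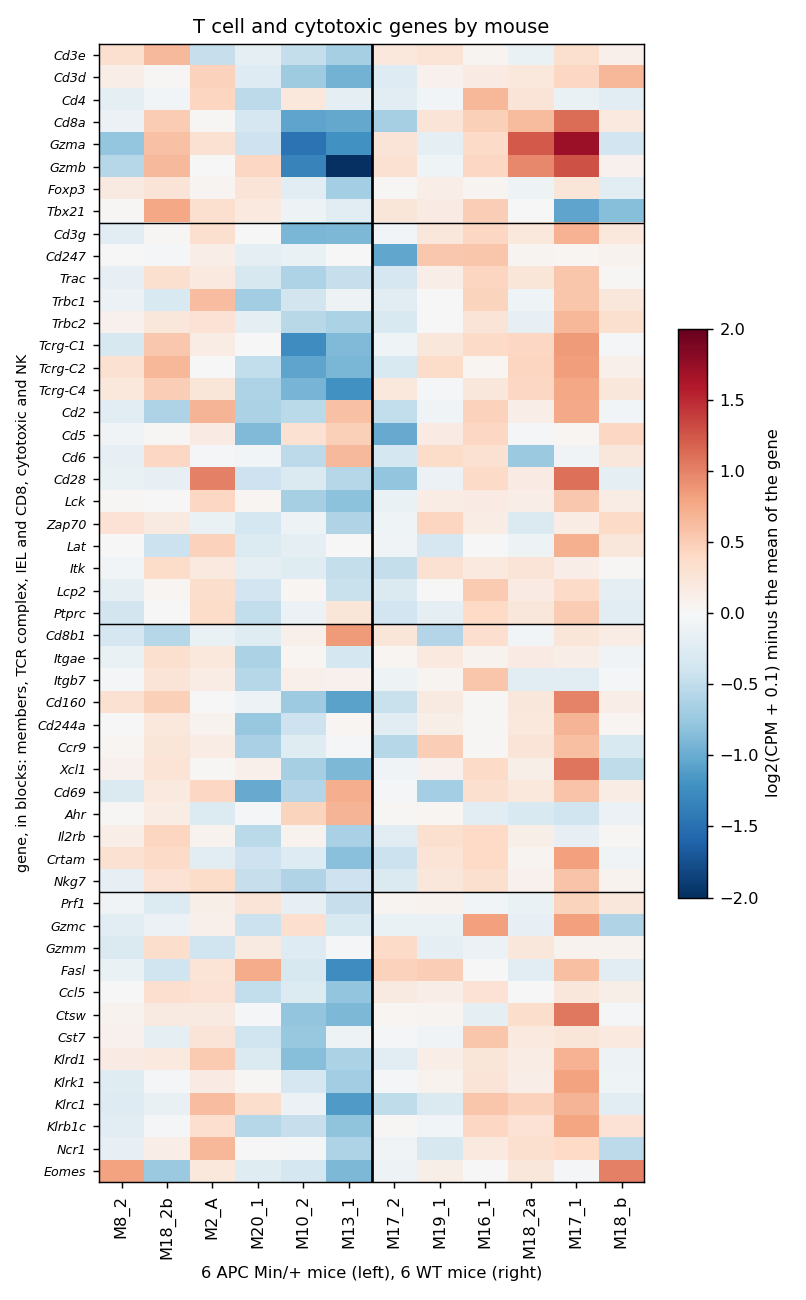
Log2(CPM + 0.1) of each gene in each mouse minus the mean of that gene over the 12 mice (red higher, blue lower, colours saturate at 2), with the 6 APC Min/+ mice left and the 6 WT mice right of the line, and the 8 genes followed by the T cell receptor, IEL and CD8, and cytotoxic and NK lists. The columns of M10_2 and M13_1 are mostly blue and that of M17_1 mostly red, while Cd8b1, Cd69, Ahr, Cd2, Cd5 and Cd6 are red in M13_1. Low values were not confined to M10_2 and M13_1. APC Min/+ mouse M20_1 was among the 2 lowest for 7 of 12 IEL and CD8 genes, against 5 for M13_1 and 4 for M10_2. For the 18 receptor genes these numbers were 7, 11 and 9, and for 13 cytotoxic and NK genes 4, 10 and 4.

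Among 12 genes of intraepithelial and CD8 lymphocytes, 11 had a negative log2 fold change, against 51.6% of all genes tested. The median of the 12 was -0.19, and -0.16 without M10_2 and M13_1. None passed an FDR of 0.05. At an unadjusted p under 0.05 there was 1 higher and 0 lower, against 3.46% and 1.81% of all genes tested. The higher gene was Ahr, the aryl hydrocarbon receptor, at 26.7 ± 6.57 CPM (SD, n = 6) for APC Min/+ and 20.8 ± 2.54 CPM (SD, n = 6) for WT. Its log2 fold change was 0.36 (edgeR quasi-likelihood FDR = 0.908), and 0.13 without M10_2 and M13_1, the 2 mice in which it was highest. Ahr (3.86 RPKM), Xcl1, a chemokine of activated lymphocytes (1.94 RPKM), and Nkg7, a granule protein gene (1.53 RPKM), had the highest levels per length. The log2 fold changes of Xcl1 and Nkg7 were -0.43 and -0.33, and both were -0.16 without those mice.

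All 13 tested genes of the 15 for cytotoxic effectors and NK receptors had a negative log2 fold change, against 51.6% of all genes tested. The median of the 13 was -0.43, but none passed an FDR of 0.05. Without M10_2 and M13_1 the median was -0.16 and 12 of 13 were below 0. At an unadjusted p under 0.05, 0 of the 13 were higher and 1 was lower, against 3.46% and 1.81% of all genes tested. The lower gene was Klrb1c, which encodes the NK1.1 receptor, at 0.650 ± 0.221 CPM (SD, n = 6) for APC Min/+ and 1.01 ± 0.242 CPM (SD, n = 6) for WT. Its log2 fold change was -0.63 (SE 0.241, edgeR quasi-likelihood FDR = 0.908) and -0.45 without those mice. The NK receptor gene Klrd1 (2.57 RPKM), the cathepsin gene Ctsw (2.3 RPKM) and the chemokine gene Ccl5 (1.79 RPKM) had the highest levels per length, and their log2 fold changes of -0.26, -0.44 and -0.27 were -0.0028, -0.17 and -0.093 without M10_2 and M13_1. M13_1 was the lowest mouse for 9 of the 13 genes, and M17_1 the highest for 6.

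The 14 lineage factors had a median log2 fold change of -0.042, with 8 below 0, which turned to 0.012, with 7 below 0, without M10_2 and M13_1, and 0 of them passed an FDR of 0.05 or an unadjusted p of 0.05 in either direction. Zbtb7b (33.6 RPKM), Id3 (30.8 RPKM) and Id2 (22.6 RPKM) led the list in level per length. These levels were far above the 0.129 RPKM of Tbx21 and the 0.999 RPKM of Cd3e. Their log2 fold changes were 0.0066, -0.025 and -0.14, and 0.12, 0.14 and -0.13 without those mice. Of 11 regulatory T cell genes, 8 were below 0, against 51.6% of all genes tested. The median of the 11 was -0.21, and -0.28 without those mice, and 0 passed an FDR of 0.05. At an unadjusted p under 0.05, 1 was higher and 1 lower, against 3.46% and 1.81% of all genes tested. Il10, which encodes the cytokine interleukin 10, was the lower one, at 0.0720 ± 0.0345 CPM (SD, n = 6) for APC Min/+ and 0.154 ± 0.0450 CPM (SD, n = 6) for WT. Its log2 fold change was -1.08 (SE 0.361, edgeR quasi-likelihood FDR = 0.908) and -0.89 without M10_2 and M13_1. Il10 rested on few counts, from 2 in M13_1 to 24 in WT mouse M18_2a. Gpr83 was the higher one, with 2.59 CPM for M10_2, 3.63 CPM for M13_1 and 0.0617 ± 0.0445 CPM (SD, n = 6) for WT, and its log2 fold change of 4.08 was 0.44 without those mice. Ikzf2 (5.82 RPKM), Lrrc32 (2.28 RPKM) and Tnfrsf4 (0.599 RPKM) had the highest levels per length. Their log2 fold changes were -0.071, 0.22 and -0.37, and 0.26, 0.13 and -0.55 without M10_2 and M13_1. For the genes of these and the other lists, how much RNA came from cells other than T cells was not tested.

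The 7 genes of naive and homing lymphocytes and their lymphoid stroma had a median log2 fold change of 0.037, which was -0.24 without M10_2 and M13_1, and 0 passed an FDR of 0.05 or an unadjusted p of 0.05. Ccl21a (47.9 RPKM), S1pr1 (3.26 RPKM) and Il7r (0.812 RPKM) had log2 fold changes of -0.031, 0.14 and -0.34, and of -0.12, 0.093 and -0.33 without those mice. Cd5 (0.287 CPM), Cd6 (0.398 CPM) and Cd69 (1.26 CPM), genes of the other lists named after their values were seen, were highest in M13_1, the mouse with the most B cell markers and the lowest Cd3e, Cd3d and Gzmb. In M13_1, Cd5 rested on 26 counts and Cd6 on 36, and Cd5 was close to the 0.271 CPM of WT mouse M16_1. Which cells made these transcripts in M13_1 was not tested.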

How the data were processed

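Proximal colon RNA of 12 mice (6 APC Min/+, 6 WT) was sequenced as paired ends. Per the labels and the study's methods, the authors used STAR 2.3.0 with GRCm38.p2 for alignment and featureCounts for counting. The deposited tables hold raw counts per gene and gene lengths, 1 table per mouse. Strand setting, treatment of read pairs and of multi-mapping reads, and annotation release are not given in the sources used here. Symbols were taken from GENCODE M21 and upstream sequences from RefSeq (GRCm38.p6). Trdc was not analysed here.

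Genes reaching 10 counts in 3 or more mice were compared between genotypes with edgeR 4.0.16 (quasi-likelihood test, TMM factors of 0.906 to 1.10, Benjamini-Hochberg adjustment over 20311 genes, R 4.3.3), tested on simulated data. SE values are approximate, from the log2 fold change and F of that test. TMM factors also entered CPM, for which 3 counts corresponded to 0.0152 to 0.0560 CPM. No 2 libraries of the same genotype agreed within sampling noise, and pairs across genotypes were not compared. DESeq2 1.42.0, edgeR's exact test, other size factors, no filter, log2(CPM + 1) and left-out mice were alternatives. Correlations used log2(CPM + 0.1).

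The genes and lists were chosen with earlier results of these data known. Named from the other lists were genes at an unadjusted p under 0.05 or without overlap and the 3 with the highest mean RPKM, and, for Cd3e, Cd8a, Gzma and Gzmb, the 5 genes most alike across mice. Prf1, Gzmk, Ifng, Cd8b1, Cd2, Cd5, Cd6, Cd69 and the macrophage markers Adgre1, Csf1r and C1qb (3 of 8) were named outside this rule, with their values known. So were the 8 epithelial markers, of which r is given for Muc2 only. The Tcrg-C genes were named in place of Trdc.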

Additional observations from a re-analysis of the deposited data

How the results depend on the processing

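No T cell gene passed an FDR of 0.05 under any alternative run, and the sign of all 8 log2 fold changes was kept with other size factors, without a filter, with edgeR's exact test and with DESeq2. Over all genes, the quasi-likelihood test called 0 at an FDR of 0.05 and a 2-fold difference, against 10 with edgeR's exact test and 27 with DESeq2. With 1 mouse left out at a time, the log2 fold change ranged from -1.53 to -0.81 for Gzma, -1.23 to -0.68 for Gzmb, -0.92 to -0.50 for Cd8a, -0.57 to -0.29 for Cd3d, -0.43 to -0.12 for Cd3e and 0.16 to 0.56 for Tbx21. That of Foxp3 (-0.11 to 0.12) changed sign in 4 of 12 such fits, at 0.040 without M10_2, 0.12 without M13_1, 0.0060 without M19_1 and 0.042 without M17_1, and was 0.23 without both M10_2 and M13_1. That of Cd4 (-0.20 to 0.058) changed sign without M16_1. The r of Cd3e with Cd3d, 0.49, was -0.18 without M10_2 and M13_1. The cause of these changes was not tested. The lowest counts in a mouse were 6 for Gzmb, 9 for Foxp3, 10 for Tbx21 and 16 for Gzma. No paired analysis was possible because the replicate numbers only name mice in accession order, and the labels do not say what the suffixes of the mouse names stand for.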

Other observations

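The genes most like Gzma across the 12 mice were Cd300lf, Stx17, Chic1, Zfp974 and Serinc3 (r of 0.95 to 0.96), and those most like Gzmb were Fam49a, Pcsk1, Edem3, Ccdc9b and Gsdme, led by Fam49a at 0.98. Gzmb ranked 88 for Gzma and Gzma ranked 241 for Gzmb. Without M10_2 and M13_1 the lists had other leading genes, Rassf9 for Gzma (r = 0.98) and Homer2 for Gzmb (r = 0.96). With 20311 genes and 12 mice, values of this size are a description only. The goblet cell mucin gene Muc2, 1 of 8 epithelial markers and named with its values known, had an r of 0.94 with Gzmb. Without those mice it was 0.79. Not all 8 markers ran this way. Cdh1 was highest in M10_2 and M13_1, the lowest mice for Gzmb. Cdh1 (296.7 CPM) and Vil1 (466.5 CPM) were lowest in M17_1, the highest mouse for Gzmb.

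In APC Min/+ mice, 3 of 6 smooth muscle markers were higher at an unadjusted p under 0.05, with log2 fold changes of 0.52 for Des, 0.45 for Cnn1 and 0.41 for Actg2, none past an FDR of 0.05 in edgeR's quasi-likelihood test, against 3.46% of all genes tested. The median of the 6 was 0.34, and 0.25 without M10_2 and M13_1. The 6 plasma cell markers had a median log2 fold change of -0.75, which was -0.39 without M10_2 and M13_1. For the 10 B cell and follicle markers the median was 1.05, and -0.88 without those mice. The 5 adipocyte markers gave -0.051 and 0.49, and the 8 epithelial markers -0.020 and 0.12.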
